A study of Mus musculus with 10 samples.

Results

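Untreated resident macrophages of mouse bone marrow were compared with macrophages grown from bone marrow and activated with lipopolysaccharide (LPS), to ask how far the resident state without LPS resembled activated bone marrow derived macrophages (BMDM) and where it did not. The comparison used every library that the labels assign to these groups, 3 of untreated resident macrophages and 2 of LPS-treated BMDM, which is 5 of the 10 RNA sequencing libraries in the series. All cells came from C57BL/6 mice at 12 weeks of age. Resident macrophages were the cells of femur and tibia marrow that a magnetic column held back without any staining, and the labels give them the marker CD163+. They were kept for the 4 h of the experiment without LPS. BMDM, labelled CD163-, were grown from the cells that passed the column, in medium with 10% fetal bovine serum and 20% L929 cell supernatant, a source of macrophage colony-stimulating factor, and then received 1 µg/ml LPS for 4 h. The protocol puts this culture at 6 days, whereas the titles name 7 days. The other libraries, 2 of untreated BMDM and 3 of resident macrophages with 1 µg/ml LPS for 4 h, entered the same fit and are given beside the comparison where they place its values. Origin, isolation, culture and LPS all differ between the compared groups, so their shares in any difference cannot be told apart. The labels do not say whether libraries of a group came from separate mice, so p-values measure only the spread between these libraries.

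LPS is a component of the outer membrane of Gram-negative bacteria that macrophages sense through Toll-like receptor 4 with its partners CD14 and MD-2. One arm of the signal, through MyD88, leads to NF-kB and to cytokines, chemokines and feedback inhibitors, and the other, through TRIF, leads to interferon beta, which acts back on the cells and raises a large set of antiviral genes. Resident macrophages of the marrow surround maturing red cells in erythroblastic islands, engulf their expelled nuclei and recycle iron, and are known for CD163, VCAM-1 and the transcription factor SPI-C.

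Gene read totals recovered from the deposited values ran from 27091734 to 37701333 per library. All levels below are the deposited values, read counts scaled by 1 factor per library, and differences are on the log2(value + 1) scale. The marker behind the labels fitted them in all 10 libraries, with Cd163 at 10740, 5282 and 6487 in untreated resident and 14.4 and 14.9 in LPS-treated BMDM libraries. The general macrophage genes Adgre1 (F4/80) and Csf1r were abundant in every library. Transcripts of the Y chromosome were present in replicate 1 of both resident groups and at the floor of the table in the other 8 libraries. The same untreated resident replicate 1 held the most Cd163 and the least RNA of neutrophil genes of its group, so the resident libraries differed in make-up among themselves.

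The 2 states differed at most genes. Of 13755 genes tested with limma, 10062 (73.2%) differed at an adjusted p under 0.05 after Benjamini-Hochberg adjustment over all of them, 5240 (38.1%) with a higher and 4822 (35.1%) with a lower level in untreated resident macrophages, and the median log2 difference over all genes was 0.04. These splits depend on the scaling between libraries: with equal library totals in place of the authors' factors, 7315 genes were higher and 2719 lower, and the median moved to 0.49. At least 2-fold differences that passed the test numbered 3398 higher (24.7%) and 2240 lower (16.3%). Likeness was measured separately, by the 95% interval of the log2 difference lying wholly between -1 and 1, which holds a gene to within 2-fold. This was the case for 5666 genes (41.2%), of which 2991 also passed the test with a small difference. Neither statement could be made for 1018 genes. The libraries did not overlap, with every resident value above, for 42.4% of all genes and with every resident value below for 39.7%.

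Across all genes tested, untreated resident libraries correlated with LPS-treated BMDM libraries at a Pearson r of 0.839 to 0.863 (6 pairs, log2 values) and with untreated BMDM at 0.808 to 0.830 (6 pairs). LPS-treated and untreated BMDM reached 0.896 to 0.898 (4 pairs), and untreated and LPS-treated resident libraries 0.971 to 0.986 (9 pairs). These describe the libraries over genes, which are not independent replicates. Thus each untreated resident library lay a little nearer to activated than to resting BMDM, and far nearer to resident cells with LPS than to either. The scatter of gene levels shows where the likeness failed: antiviral genes ran along the line of a 2-fold lower resident level, while neutrophil and resident genes lay far above it and a few lysosomal genes far below.

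**Figure D1:**
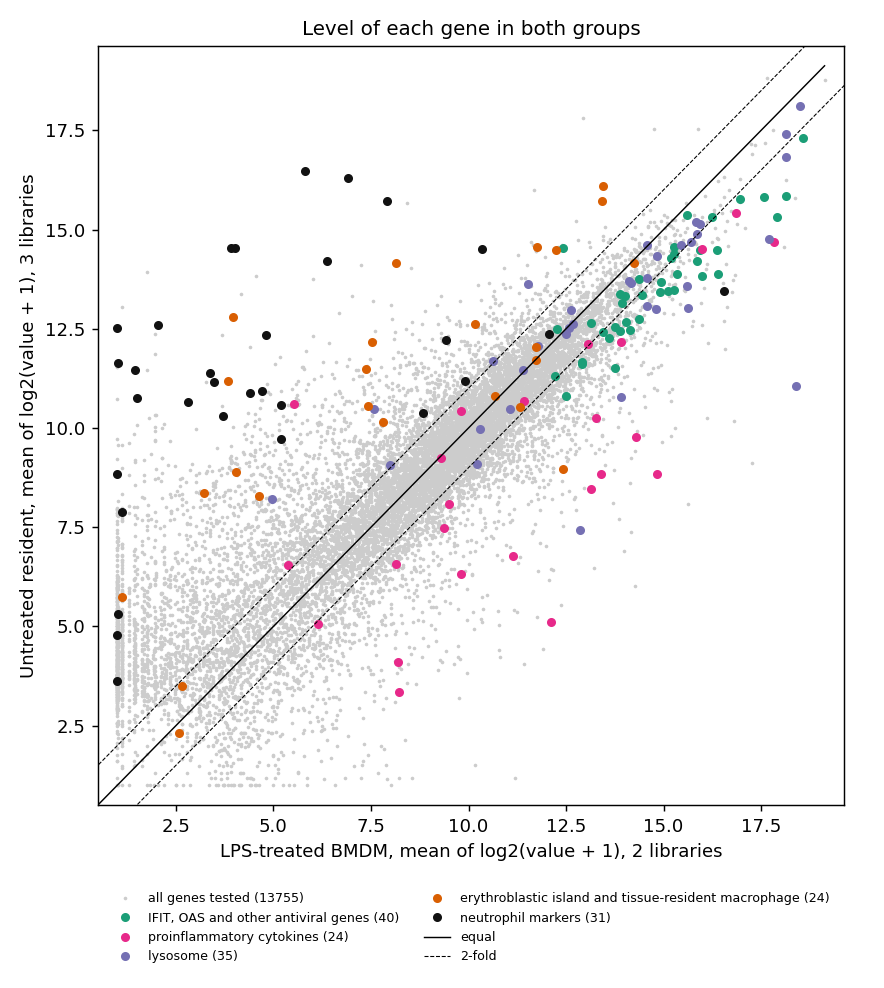
Each point is 1 of 13755 genes; the x axis is the mean of log2(value + 1) over the 2 LPS-treated BMDM libraries and the y axis the mean over the 3 untreated resident libraries, with 5 gene lists in colour. The solid line marks equal levels and the dashed lines 2-fold differences; antiviral genes run along the lower dashed line, and neutrophil markers lie above the upper one in nearly all cases.

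In most cytokine genes the resident cells stood between resting and activated BMDM. Of 24 proinflammatory cytokine genes, 20 were lower and 3 higher in untreated resident macrophages than in LPS-treated BMDM, with a median log2 difference of -1.81, where 35.1% of all genes were lower and 38.1% higher. In 21 of the 24 the resident mean lay between the untreated and the LPS-treated BMDM mean, and in 3 above both. Over all genes tested, 4302 of 13755 lay between. The 2 counts are not a like comparison, since a wider gap between the BMDM groups leaves more room for a mean between them. The median log2 difference of LPS-treated minus untreated BMDM was 6.91 in the list and -0.04 over all genes. The median member stood at 29.7% of its level in LPS-treated BMDM, while untreated BMDM stood at 0.631% and LPS-treated resident macrophages at 57.0%. In 19 of the 24 every resident library was below both LPS-treated BMDM libraries, and in 3 above. Over all genes this was the case for 39.7% below and 42.4% above. Against untreated BMDM, 23 of the 24 were higher in untreated resident macrophages and none lower by limma, where 71.9% of all genes differed, 39.2% higher and 32.6% lower. These comparisons share libraries with the main one. In LPS-treated against untreated BMDM all 24 were higher, where 57.8% of all genes differed, 28.3% higher and 29.5% lower.

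Tnf, the early cytokine of the LPS response, measured 27090, 22600 and 21121 in the untreated resident libraries and 66514 and 63529 in the LPS-treated BMDM libraries. All resident values were below both BMDM values and above those of untreated BMDM, 1651 and 1650. The log2 difference was -1.47 ± 0.14 (SE; limma adjusted p = 4.65e-06), so resident cells without LPS held 36.3% of the activated level. Il1b, the pyrogenic cytokine made as an inactive precursor, measured 33295, 26496 and 20716 against 237370 and 227190 (-3.14 ± 0.17, adjusted p = 1.11e-07). Here the gap was wider, with 11.6% of the activated level, yet untreated BMDM reached a mean of only 245. Ifnb1, the interferon beta gene, was listed at the floor in both untreated BMDM libraries but measured 99.9, 111 and 73.3 in untreated resident and 246 and 318 in LPS-treated BMDM libraries (-1.57 ± 0.24, adjusted p = 0.000165). The resident libraries were thus all above the resting and all below the activated BMDM libraries for this gene.

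Il6 and Il12b showed the least likeness among the cytokines. Il6, which drives the acute-phase response, measured 466, 680 and 296 in untreated resident and 30712 and 27852 in LPS-treated BMDM libraries, or 1.64% of the activated level (-6.00 ± 0.55, adjusted p = 4.4e-06). Il12b, the p40 subunit of IL-12 and IL-23, measured 51.7, 34.2 and 21 against 4790 and 4057 (-7.00 ± 0.33, adjusted p = 3.75e-08). Neither gene overlapped between the groups, and LPS-treated resident macrophages, with means of 2431 for Il6 and 319 for Il12b, also stayed below both activated BMDM libraries. Il19, a cytokine of the IL-10 family, had the third lowest log2 difference in the list, at 16.1, 9.5 and 4.76 against 302 and 291.

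A few cytokines went the other way. Csf3, which encodes the granulocyte growth factor G-CSF, measured 2084, 1825 and 966 in untreated resident and 40.1 and 51.5 in LPS-treated BMDM libraries (5.06 ± 0.35, adjusted p = 5.99e-07). Every resident library exceeded both BMDM libraries. Il18, made without LPS in many macrophages, was modestly higher at 1440, 1362 and 1341 against 942 and 848, with an interval of 0.42 to 0.83 that stayed within 2-fold. In untreated BMDM its mean was only 95.8, so in BMDM the Il18 level was higher with LPS. Il10, the anti-inflammatory cytokine, did not pass the test: it measured 5749, 3639 and 1719 against 5581 and 5475 (-0.74 ± 0.43, adjusted p = 0.142). The resident spread for Il10 covered both BMDM values, with the highest value in replicate 1. Without that library the log2 difference was -1.14 and passed the test (adjusted p = 0.0166).

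**Figure D2:**
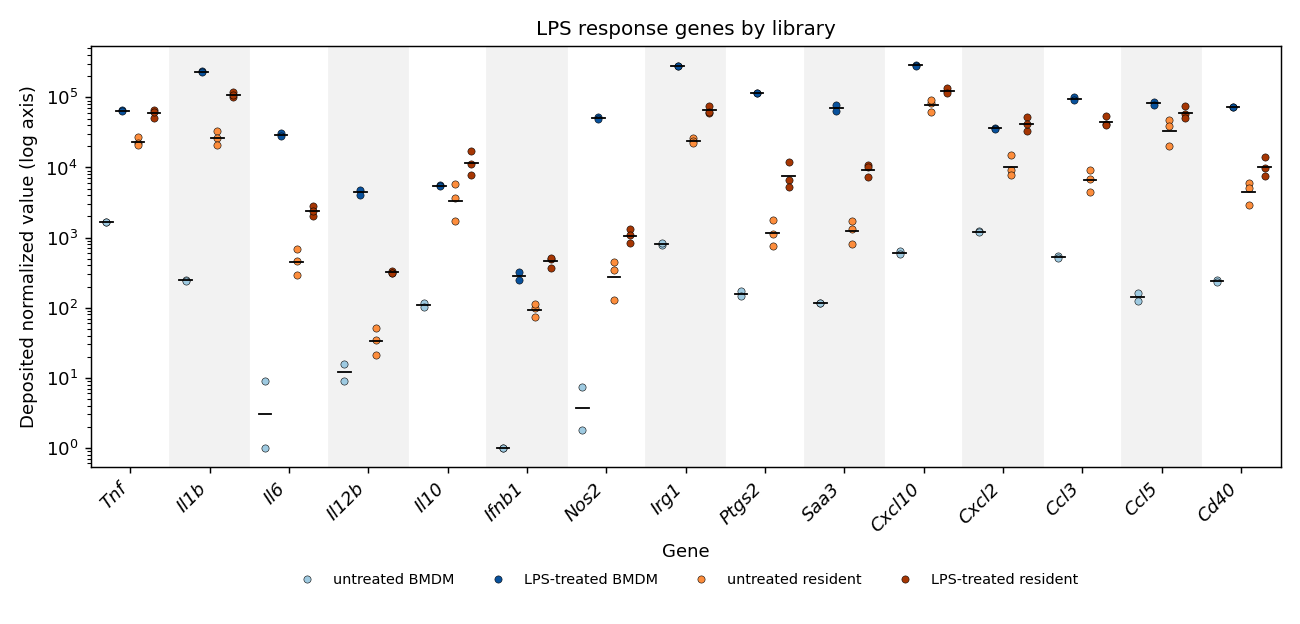
Deposited normalized value (log axis) of 15 LPS response genes in each of the 10 libraries, by group; points are libraries and bars geometric means. For Tnf, Il1b, Ifnb1 and the chemokines the untreated resident points lie between untreated and LPS-treated BMDM, and for Il6, Il12b, Nos2, Ptgs2 and Saa3 they lie far below LPS-treated BMDM.

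Among 12 CC chemokines, which mainly draw monocytes and lymphocytes, 10 were lower and 1 higher, against 35.1% and 38.1% of all genes, with a median log2 difference of -3.06. Ccl3 measured 9286, 6940 and 4520 in untreated resident and 100600 and 91542 in LPS-treated BMDM libraries (-3.86 ± 0.25, adjusted p = 3.3e-07), and Ccl2 measured 2971, 3420 and 1868 against 27520 and 24545 (-3.28 ± 0.25, adjusted p = 1e-06). Ccl5, an interferon-linked chemokine, came closer, at 47666, 39074 and 20491 against 84775 and 79189 (-1.28 ± 0.30, adjusted p = 0.00331). Its resident values stayed below both BMDM values, and after quantile normalization its difference of -0.28 did not pass the test. Ccl8 was the member with a higher resident level, at 351, 282 and 184 against 108 and 66.4 (1.62 ± 0.33, adjusted p = 0.00132).

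Among 12 CXC chemokines 6 were lower and 4 higher, against 35.1% and 38.1% of all genes; the difference between the families was not tested. The lower ones were LPS response genes. Cxcl10, an interferon-induced attractant of T cells, measured 82778, 92780 and 61338 against 289210 and 284870 (-1.88 ± 0.17, adjusted p = 4.47e-06), and Cxcl2, a neutrophil attractant, 15010, 9078 and 7751 against 36964 and 35076 (-1.82 ± 0.25, adjusted p = 9.31e-05). Both genes were far lower in untreated BMDM, with means of 612 for Cxcl10 and 1208 for Cxcl2. The higher ones were led by Cxcl12 and Ppbp. Cxcl12, the stromal factor that retains stem cells in marrow, measured 1219, 1298 and 711 against 2.06 and 4.06. Ppbp, a platelet chemokine, measured 3061, 11002 and 9434 against 213 and 317. Resident replicate 1 had the lowest Ppbp of its group and replicate 3 the lowest Cxcl12. Markers of stroma and of megakaryocytes, given further on, were higher in the same libraries. The part of those cells in these 2 genes was not tested.

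Of 40 antiviral genes of the IFIT and OAS families and their relatives, 37 were lower and 2 higher in untreated resident macrophages. Over all genes 35.1% were lower and 38.1% higher. The list had a median log2 difference of -1.28, and 38 members lay between the untreated and LPS-treated BMDM means. These means were far apart, with a median log2 difference of 5.03, which leaves much room for a value between them. After quantile normalization 29 were lower, the median was -0.82 and 17 were held within 2-fold, against 7 with the deposited scaling. Of all genes 5271 of 13614 were lower and 5808 within 2-fold after quantile normalization, and 41.2% were within 2-fold with the deposited scaling. With equal library totals 32 were lower, the median was -0.83 and 15 were held within 2-fold. Of all genes 2719 of 13750 were lower and 5285 within 2-fold with equal library totals. The median member stood at 41.5% of its activated BMDM level, against 3.09% in untreated BMDM. All 40 were higher in untreated resident macrophages than in untreated BMDM, against 39.2% of all genes. LPS-treated resident macrophages also remained below LPS-treated BMDM in 32 and were above it in 3, where 71.3% of all genes differed, 34.5% lower and 36.7% higher. The list's summed value took 2.53 to 3.34% of the untreated resident, 5.81 to 5.98% of the LPS-treated and 0.219 to 0.221% of the untreated BMDM libraries. Resident libraries without added LPS thus held these transcripts far above resting BMDM and short of activated BMDM. In bulk RNA, fewer cells with a transcript and less of it per cell cannot be told apart.

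The promoters of 4 interferon-stimulated genes and of 2 NF-kB targets are shown because each set holds a gene near to and at least 1 gene far from the activated level. Each is the 250 bases before the gene's start in the sense of transcription, from RefSeq on GRCm38.p6, in lower case. Capitals mark matches on either strand to the core of the interferon-stimulated response element (ISRE), searched as GAAA, any 2 bases and GAAA, or to a form of the NF-kB site, searched as GGGA, any 1 base and TTTCC. The motifs did not overlap in these windows. Cxcl10, Gbp2 and Gbp5 were lower than in activated BMDM, Oasl1 was held within 2-fold, Nfkbia was also held within 2-fold, and Il6 was at 1.64%.
Cxcl10 (chr5:92348890-92349139, minus strand): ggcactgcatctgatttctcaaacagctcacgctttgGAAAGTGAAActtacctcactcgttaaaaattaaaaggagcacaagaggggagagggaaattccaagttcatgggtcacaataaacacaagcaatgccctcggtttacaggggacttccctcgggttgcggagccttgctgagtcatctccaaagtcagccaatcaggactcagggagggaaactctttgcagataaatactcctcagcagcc
Gbp2 (chr3:142620413-142620662, plus strand): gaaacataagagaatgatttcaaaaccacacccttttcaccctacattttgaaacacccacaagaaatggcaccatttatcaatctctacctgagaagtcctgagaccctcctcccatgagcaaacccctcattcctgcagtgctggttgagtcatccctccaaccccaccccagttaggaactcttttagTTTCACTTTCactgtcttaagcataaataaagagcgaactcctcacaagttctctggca
Gbp5 (chr3:142496684-142496933, plus strand): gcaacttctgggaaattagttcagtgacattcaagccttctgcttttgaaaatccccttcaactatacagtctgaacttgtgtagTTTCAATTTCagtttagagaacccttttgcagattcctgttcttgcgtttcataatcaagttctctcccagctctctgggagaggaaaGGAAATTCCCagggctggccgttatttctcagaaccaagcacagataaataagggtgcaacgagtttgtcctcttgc
Oasl1 (chr5:114922990-114923239, plus strand): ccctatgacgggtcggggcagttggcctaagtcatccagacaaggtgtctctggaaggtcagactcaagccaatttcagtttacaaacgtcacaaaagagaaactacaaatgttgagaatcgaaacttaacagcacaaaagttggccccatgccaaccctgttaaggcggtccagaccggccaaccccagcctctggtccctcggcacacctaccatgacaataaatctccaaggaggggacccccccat
Nfkbia (chr12:55492648-55492897, minus strand): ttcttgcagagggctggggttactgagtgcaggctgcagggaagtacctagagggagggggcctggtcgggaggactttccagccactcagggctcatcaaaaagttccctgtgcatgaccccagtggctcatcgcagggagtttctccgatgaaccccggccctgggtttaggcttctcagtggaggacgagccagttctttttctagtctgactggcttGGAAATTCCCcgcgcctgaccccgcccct
Il6 (chr5:30012864-30013113, plus strand): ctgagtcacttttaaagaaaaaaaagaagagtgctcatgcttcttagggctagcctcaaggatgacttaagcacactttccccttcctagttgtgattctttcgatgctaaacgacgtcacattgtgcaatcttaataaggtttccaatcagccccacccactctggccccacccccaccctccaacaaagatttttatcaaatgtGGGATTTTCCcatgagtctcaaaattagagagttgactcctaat

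The ISRE match began 213 bases before the start in Cxcl10, 59 in Gbp2 and 165 in Gbp5, and the NF-kB match 77 bases before it in Gbp5, 29 in Nfkbia and 44 in Il6. The Oasl1 window held neither. A promoter was found for 10952 of the 13755 genes tested. The ISRE letters were in 374 of these genes (3.41%), in 14 of 30 antiviral genes with a promoter (46.7%) and in 10 of 11 interferon-inducible GTPases (90.9%). The NF-kB letters were in 53 of all genes (0.484%), in 2 of 24 NF-kB targets (8.33%) and in 2 of 18 proinflammatory cytokines (11.1%). The NF-kB letters were in Nfkbia, which was near to the activated level, and in Il6, which was far from it. A match is a stretch of sequence and was not measured as a bound site.

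Among the antiviral genes Ifit2, which binds viral RNA and blocks translation, measured 46306, 47159 and 30290 in untreated resident and 242520 and 247880 in LPS-treated BMDM libraries (-2.60 ± 0.18, adjusted p = 7.03e-07), the widest gap of the list. Mx1, a dynamin-like antiviral GTPase, measured 14989, 17681 and 13141 against 85967 and 87418 (-2.52 ± 0.12, adjusted p = 4.37e-08). Neither overlapped between the groups. Oasl1, which restrains translation of Irf7, was the abundant exception, at 49219, 44901 and 34316 against 46130 and 53367. Its groups overlapped, its interval ran from -0.59 to 0.13, and it reached a mean of only 411 in untreated BMDM. Quantile normalization moved its difference to 0.70, with an interval that reached beyond 2-fold.

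Irf9, the DNA-binding part of the complex that binds the ISRE, was slightly higher in resident cells at 5729, 5721 and 5887 against 4831 and 4948 (0.24 ± 0.06, adjusted p = 0.00537), within 2-fold in all 25 alternatives. Irf7, the amplifier of interferon production, measured 23899, 28011 and 21467 against 40698 and 37806 (-0.69 ± 0.12, adjusted p = 0.000433), and its difference did not pass the test after quantile normalization (-0.03) or with equal library totals (-0.24). Slfn4, a Schlafen family gene of myeloid cells, was the other member with a higher resident level, at 19656, 24454 and 27437 against 5162 and 5844 (2.10 ± 0.24, adjusted p = 2.31e-05). Every resident library was above both BMDM libraries for Slfn4, and untreated BMDM held a mean of 48.4.

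The interferon-inducible GTPases, which attack the vacuoles of intracellular microbes, were lower in 15 of 16 cases and higher in 1. Over all genes 35.1% were lower and 38.1% higher. The median member stood at 25.1% of its level in LPS-treated BMDM, and at 0.877% in untreated BMDM. Gbp2 measured 12131, 13383 and 8102 against 109880 and 110880 (-3.33 ± 0.19, adjusted p = 1.38e-07), and Gbp5, which promotes inflammasome assembly, 15468, 14737 and 9381 against 92234 and 97547 (-2.88 ± 0.18, adjusted p = 2.48e-07). Resident values were below BMDM values in each. Gbp8 alone was higher, at 2402, 2487 and 1887 against 236 and 287 (3.10 ± 0.21, adjusted p = 4.47e-07). Genes of the Gbp family are close copies of each other, and how reads shared by them were counted is not given in the sources used here.

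Most NF-kB feedback genes and targets were lower in resident cells, while Nfkbia was held within 2-fold of the activated level. Of 28 NF-kB feedback genes and targets 21 were lower and 4 higher, against 35.1% and 38.1% of all genes. In the list 10 were held within 2-fold, a smaller share than the 41.2% of all genes. The median log2 difference was -1.01, and it was -0.48 after quantile normalization, with 17 lower and 8 higher. Of all genes 5271 of 13614 were lower and 4519 higher after quantile normalization. All 28 were higher in LPS-treated than in untreated BMDM, against 28.3% of all genes. In untreated resident macrophages 27 were higher and 1 lower than in untreated BMDM, against 39.2% and 32.6% of all genes. Nfkbia, which encodes the inhibitor IkB alpha, measured 36086, 29382 and 24724 against 39733 and 38555, with an interval of -0.73 to -0.06, against a mean of 2901 in untreated BMDM. The small difference passed the test (adjusted p = 0.0343) but did not pass with recomputed factors, with equal library totals, with voom, with only the compared groups fitted or without either LPS-treated BMDM library, and it turned to 0.29 after quantile normalization. The interval stayed within 2-fold in all 25 alternatives. Zfp36, which destabilizes Tnf mRNA and stood in the list of anti-inflammatory genes, measured 32949, 29118 and 24527 against 33930 and 33202 (interval -0.55 to 0.10, adjusted p = 0.181) and was within 2-fold in all 25 as well. It passed the test without resident replicate 1 (difference -0.33).

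Relb, a subunit of the slower non-canonical NF-kB, was higher in resident cells at 8487, 7578 and 7846 against 4425 and 4221 (0.88 ± 0.08, adjusted p = 5.82e-06). Cd83, a surface marker of activated antigen-presenting cells, was higher as well, at 25440, 18027 and 16542 against 10732 and 11352 (0.83 ± 0.16, adjusted p = 0.000739). The list was not uniform, since Tnip3, an A20-binding inhibitor, measured 463, 389 and 338 against 19099 and 17300 (-5.53 ± 0.15, adjusted p = 1.5e-09), and Sod2, the mitochondrial superoxide dismutase, 14409, 10995 and 9077 against 48516 and 47526 (-2.09 ± 0.18, adjusted p = 2.39e-06). Both lay below every activated BMDM library.

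The list of 24 anti-inflammatory and feedback genes held 13 lower and 8 higher members, against 35.1% and 38.1% of all genes. Tsc22d3 (GILZ), a glucocorticoid-induced inhibitor, measured 1360, 1595 and 1699 in untreated resident, 112 and 110 in LPS-treated BMDM and a mean of 1655 in untreated BMDM (3.79 ± 0.13, adjusted p = 6.68e-09). Nr4a1, an immediate-early nuclear receptor that limits inflammation, measured 2230, 2286 and 2568 against 192 and 226, with 1299 in untreated BMDM (3.49 ± 0.10, adjusted p = 1.78e-09). For both genes LPS-treated BMDM held the lowest level of these 3 groups. Atf3, a stress factor that represses cytokine genes, was lower at 4845, 4782 and 3998 against 30466 and 26889 (-2.66 ± 0.10, adjusted p = 1.01e-08).

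Some effector enzymes differed widely between the states. Nos2 (chromosome 11, 78920787 to 78960254, plus strand, GRCm38), the inducible nitric oxide synthase, measured 449, 346 and 127 in untreated resident and 52032 and 49298 in LPS-treated BMDM libraries (-7.54 ± 0.53, adjusted p = 6.21e-07), or 0.607% of the activated level. LPS-treated resident macrophages reached a mean of 1082, still far below. Irg1, now named Acod1, makes itaconate and lies on chromosome 14 (103046977 to 103056573, plus strand); it measured 26683, 23618 and 22494 against 277610 and 279410 (-3.52 ± 0.13, adjusted p = 8.3e-09). At 8.71% of the activated level it was well above the 813 of untreated BMDM. Arg1, which competes with the nitric oxide synthase for arginine, was opposite: 423, 420 and 518 against 17.5 and 24.4 (4.38 ± 0.19, adjusted p = 2.42e-08). Slc7a2, an arginine transporter, followed Nos2, at 8911, 6340 and 4229 against 61949 and 68072 (-3.39 ± 0.24, adjusted p = 6e-07). In the whole list of 14 genes 7 were lower, 5 higher and 6 held within 2-fold, against 35.1%, 38.1% and 41.2% of all genes. The list median of -0.36 turned to 0.09 with equal library totals.

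Prostaglandin genes divided between the 2 cyclooxygenases. Ptgs2, the inducible enzyme, measured 1809, 1141 and 750 against 113880 and 115210 (-6.63 ± 0.36, adjusted p = 1.13e-07), and Ptgs1, the constitutive enzyme, 3071, 3433 and 2685 against 105 and 130 (4.69 ± 0.16, adjusted p = 4.76e-09). The groups did not overlap for either gene, and the directions were opposite. Alox5 and Alox15, the lipoxygenases of leukotriene and resolvin synthesis, were higher in resident cells. Alox5 measured 454, 606 and 932 against 19.5 and 35.2, and Alox15 measured 58, 112 and 148 against 2.06 and 4.06. Of the 16 genes 9 were higher, 6 lower and 4 within 2-fold, against 38.1%, 35.1% and 41.2% of all genes. Saa3, an acute-phase protein made by macrophages, measured 807, 1751 and 1309 against 77798 and 63437 (-5.84 ± 0.27, adjusted p = 3.69e-08), so it belonged with Nos2 and Ptgs2 among genes at under 2% of the activated level.

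The sensing machinery was mostly lower, with some receptors alike. Of 40 Toll-like receptor and signalling genes 27 were lower, 7 higher and 12 held within 2-fold, with a median log2 difference of -0.89. Over all genes 35.1% were lower, 38.1% higher and 41.2% within 2-fold. In the list, equal library totals gave 21 lower and 11 higher, where 2719 of 13750 genes were lower and 7315 higher. Tlr4, the LPS receptor, measured 1607, 1409 and 1802 against 2102 and 2063. The difference passed the test (-0.38 ± 0.11, adjusted p = 0.00847) but was 0.07 with equal library totals, -0.24 after quantile normalization and -0.37 without the first LPS-treated BMDM library, and did not pass in these. Its interval stayed within 2-fold in every alternative. Cd14, which hands LPS to Tlr4, was lower at 43809, 22159 and 18690 against 77907 and 78181 (-1.57 ± 0.34, adjusted p = 0.00172), with resident replicate 1 well above the other 2.

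Tlr2, the receptor for bacterial lipoproteins, measured 31106, 26015 and 27549 against 33616 and 33924 (interval -0.51 to -0.01), and Nod1, a cytosolic sensor of peptidoglycan, 7866, 7753 and 6694 against 7834 and 7804 (interval -0.29 to 0.13). Both were many times lower in untreated BMDM, with means of 4002 for Tlr2 and 176 for Nod1. The small Tlr2 difference did not pass the test (adjusted p = 0.0558) but did without resident replicate 1 (-0.34). Tlr1 measured 254, 162 and 149 against 5455 and 5533 (-4.90 ± 0.23, adjusted p = 4.05e-08) and Tlr8, a sensor of RNA, 728, 711 and 901 against 12086 and 11978 (-3.95 ± 0.12, adjusted p = 3e-09). These receptors lay below every LPS-treated BMDM library, so likeness in Tlr2 did not extend to its partner Tlr1.

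The class I heavy chain genes H2-K1 and H2-D1, named because they were held within 2-fold, were near to the activated level. H2-K1 measured 86365, 78332 and 65427 against 86874 and 85225 (interval -0.52 to 0.17, adjusted p = 0.333) and H2-D1 145760, 119090 and 104250 against 156780 and 156620 (interval -0.81 to 0.09, adjusted p = 0.13). Both turned to higher resident levels after quantile normalization, at 0.94 for H2-K1 and 0.48 for H2-D1. The H2-K1 interval then reached beyond 2-fold. With equal library totals the H2-K1 difference was 0.27 and passed the test. The H2-D1 interval passed 2-fold when either LPS-treated BMDM library was left out, and its difference passed the test without resident replicate 1 (-0.49). Cd40, the receptor for T cell help, was lower at 5932, 5170 and 2953 against 72539 and 72570 (-4.01 ± 0.29, adjusted p = 7.85e-07), and Cd86, a ligand of CD28, was higher at 13025, 10343 and 8280 against 5743 and 5841 (0.84 ± 0.16, adjusted p = 0.000683). In the whole list of antigen presentation and costimulation 12 of 22 genes were lower and 2 higher, against 35.1% and 38.1% of all genes. The count of lower genes was 20 when the libraries with Y-linked transcripts were left out or given a term of their own, and 19 with weights per library.

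Genes of resident and island macrophages were mostly higher in the resident libraries. Of 24 genes 17 were higher and 2 lower in untreated resident macrophages, against 38.1% and 35.1% of all genes. The median log2 difference of the list was 2.55, and 19 members lay above both BMDM means. Cd163, the haptoglobin-haemoglobin scavenger receptor on chromosome 6 (124304656 to 124330527, plus strand), measured 10740, 5282 and 6487 in untreated resident and 14.4 and 14.9 in LPS-treated BMDM libraries (8.84 ± 0.27, adjusted p = 3.3e-09). It is the marker by which the labels tell the cell types apart, so this difference is a check of the labels. Spic, the factor that red-pulp and marrow macrophages need for iron recycling, measured 23425, 15989 and 16137 against 285 and 279 (6.01 ± 0.15, adjusted p = 1.03e-09). Vcam1, which binds erythroblasts, measured 88787, 63273 and 62423 against 10900 and 11500 (2.65 ± 0.16, adjusted p = 2.32e-07). Spic and Vcam1 were higher in LPS-treated than in untreated BMDM, with untreated means of 50.7 and 482, but remained far under the resident libraries.

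Other members of the list behaved in more than one way. Treml4, a receptor for late apoptotic cells, measured 3045, 1776 and 2291 against 16.5 and 10.8 (7.33 ± 0.25, adjusted p = 4.55e-09). Folr2, a folate receptor often used for tissue-resident macrophages, was lower, at 787, 431 and 362 against 5487 and 5495 (-3.46 ± 0.27, adjusted p = 1.51e-06). Itgav, an integrin chain that contacts erythroblasts, measured 24072, 16324 and 15713 against 18816 and 19854 and was held within 2-fold (-0.46 to 0.30). It passed the test without resident replicate 1 (-0.27). The list also held Klf1 and Epor, which red cell precursors express and which are named here after their values were seen, and erythroid markers were higher in the same libraries. The part of those cells in these 2 genes was not tested.

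**Figure D3:**
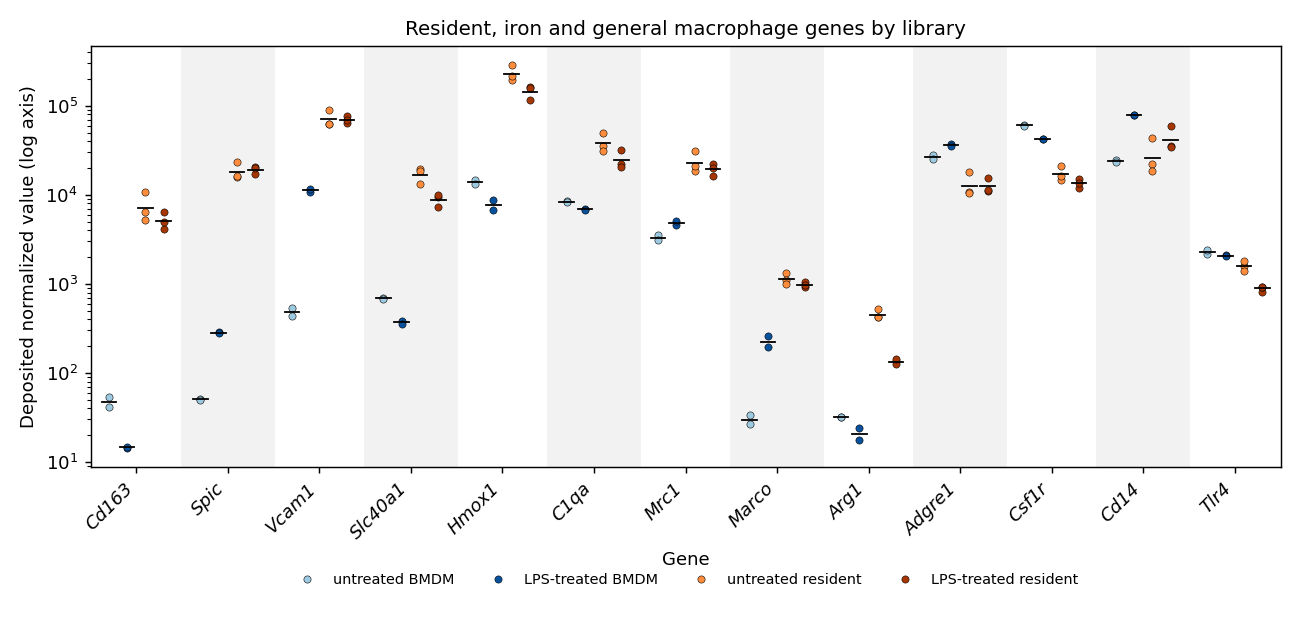
Deposited normalized value (log axis) of 13 resident, iron and general macrophage genes in each of the 10 libraries, by group; points are libraries and bars geometric means. Cd163, Spic, Slc40a1 and Hmox1 separate the resident from the BMDM libraries with or without LPS, while Adgre1, Csf1r and Cd14 are lower in untreated resident than in LPS-treated BMDM libraries and Tlr4 lies close together.

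Hmox1 (chromosome 8, 75093621 to 75100589, plus strand), the heme oxygenase, measured 286950, 194800 and 216460 against 8800 and 6840 (4.89 ± 0.21, adjusted p = 2.42e-08), and Slc40a1, the iron exporter ferroportin, 19339, 13132 and 18442 against 381 and 356 (5.50 ± 0.17, adjusted p = 3.49e-09). Resident libraries exceeded both BMDM libraries for each gene, and untreated BMDM means were 14003 for Hmox1 and 692 for Slc40a1. Cp, the plasma ferroxidase ceruloplasmin, was lower at 126, 173 and 100 against 4161 and 3993 (-4.96 ± 0.20, adjusted p = 1.57e-08). Lcn2, which withholds iron from bacteria and is also a neutrophil granule gene, was higher at 18650, 23939 and 28543 against 1369 and 1237 (4.17 ± 0.18, adjusted p = 2.3e-08). Of the 28 iron and heme genes 13 were higher, 5 lower and 12 within 2-fold, against 38.1% higher, 35.1% lower and 41.2% within 2-fold of all genes. The split moved to 22 higher and 2 lower with equal library totals, where 7315 of 13750 genes were higher and 2719 lower. It moved to 13 higher and 9 lower when both libraries with Y-linked transcripts were left out. It was 11 higher and 3 lower when either LPS-treated BMDM library was left out.

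Genes of the NRF2 response to oxidants included 12 of 23 higher and 5 lower, against 38.1% and 35.1% of all genes. Gclc, the catalytic part of the enzyme that limits glutathione synthesis, measured 3363, 2749 and 3564 against 385 and 394 (3.04 ± 0.14, adjusted p = 4.16e-08). The untreated BMDM mean of 1874 lay between these groups. Nfe2l2, the NRF2 gene itself, was lower at 5129, 5480 and 5932 against 12902 and 12018 (-1.18 ± 0.09, adjusted p = 1.1e-06).

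Of 18 pan-macrophage genes 11 were lower and 6 higher, against 35.1% and 38.1% of all genes, with a median log2 difference of -1.39, or -0.71 after quantile normalization. Adgre1 measured 18056, 10692 and 10457 against 37213 and 35511 (-1.52 ± 0.23, adjusted p = 0.000148) and Csf1r, the receptor for macrophage colony-stimulating factor, 20844, 14637 and 16277 against 42060 and 42196 (-1.30 ± 0.15, adjusted p = 2.54e-05). Spi1 (PU.1), the master factor of myeloid cells, was alike at 28018, 23631 and 24238 against 26601 and 24038 (interval -0.27 to 0.27). Markers of many other marrow cells were higher in these resident libraries, as given further on, and what they account for in the lower macrophage genes was not tested.

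Of 29 genes of apoptotic cell clearance and scavenging 13 were higher and 10 lower, where 38.1% of all genes were higher and 35.1% lower, so the counts were near the background. Timd4, a receptor for phosphatidylserine on resident macrophages, measured 4012, 5300 and 4593 against 171 and 198 (4.64 ± 0.23, adjusted p = 4.82e-08), and Mrc1, the mannose receptor, 30808, 18426 and 20970 against 4589 and 5113 (2.24 ± 0.20, adjusted p = 3.63e-06). Marco, a scavenger receptor for bacteria, measured 1324, 1096 and 998 against 257 and 194 (2.34 ± 0.17, adjusted p = 7.97e-07). These 3 genes were higher in every resident library. Mfge8, the bridge between phosphatidylserine and integrins, was lower at 102, 241 and 183 against 16852 and 20288 (-6.80 ± 0.35, adjusted p = 6.63e-08), and Msr1, scavenger receptor A, at 1068, 1031 and 986 against 40730 and 39828 (-5.29 ± 0.14, adjusted p = 1.29e-09).

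Of 21 complement genes 10 were higher and 10 lower, against 38.1% and 35.1% of all genes, so neither direction stood out from the other. C1qa measured 49791, 35278 and 30991 against 7021 and 6820 (2.45 ± 0.22, adjusted p = 3.5e-06). Its partner chain C1qb measured 52039, 35989 and 29495 against 31948 and 30948, held within 2-fold (-0.25 to 0.80), although the encoded chains form 1 molecule. Quantile normalization and equal totals moved C1qb to 0.98 and 0.73, past the test. C3ar1, the receptor of the C3a fragment, was lower at 2272, 1631 and 1577 against 23202 and 23144 (-3.68 ± 0.16, adjusted p = 2.17e-08).

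A set of genes abundant in both BMDM groups was far lower in the resident cells. Gpnmb, a glycoprotein of late endosomes on chromosome 6 (49036546 to 49070929, plus strand), measured 3310, 1664 and 1716 in untreated resident, 337070 and 355580 in LPS-treated BMDM and 349200 and 346160 in untreated BMDM libraries (-7.35 ± 0.40, adjusted p = 1.11e-07). Mmp12, the macrophage elastase, measured 1188, 439 and 321 against 151950 and 164630 (-8.16 ± 0.50, adjusted p = 2.52e-07). Trem2, a lipid-binding receptor, measured 1268, 530 and 470 against 19546 and 20061 (-4.86 ± 0.43, adjusted p = 3.67e-06), and Spp1 (osteopontin) 4338, 3709 and 4087 against 99835 and 96771 (-4.61 ± 0.23, adjusted p = 5.04e-08). Untreated BMDM means were 69707 for Mmp12, 26350 for Trem2 and 58013 for Spp1, so these genes marked BMDM with or without LPS. Resident replicate 1 was the highest of its group for all of them.

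Of 35 lysosomal genes 21 were lower and 7 higher, against 35.1% and 38.1% of all genes. The counts depended on the scaling, with 13 lower and 10 higher after quantile normalization and 14 lower and 11 higher with equal library totals. Of all genes 5271 of 13614 were lower and 4519 higher after quantile normalization. With equal library totals 2719 of 13750 were lower and 7315 higher. Atp6v0d2, a subunit of the proton pump, measured 247, 141 and 143 against 7064 and 7778 (-5.43 ± 0.31, adjusted p = 1.4e-07), and Gusb, beta-glucuronidase, 1924, 1597 and 1751 against 15242 and 15308 (-3.12 ± 0.08, adjusted p = 1.56e-09). Tfeb, which drives lysosome genes, was higher at 1400, 1221 and 1709 against 199 and 179, while untreated BMDM held 2146. The protease gene Lgmn was alike in both groups, at 32303, 22402 and 21984 against 23928 and 24734 (interval -0.34 to 0.44).

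Of 32 lipid genes 14 were lower and 11 higher, near the 35.1% and 38.1% of all genes, and their median of -0.10 changed sign with the scaling. Ch25h, which makes 25-hydroxycholesterol and is induced by interferon, measured 221, 296 and 139 against 15133 and 14345 (-6.13 ± 0.36, adjusted p = 1.64e-07). Lpl, lipoprotein lipase, measured 20595, 12336 and 13073 against 118470 and 114700 (-2.97 ± 0.22, adjusted p = 1.02e-06). Both lay below all BMDM LPS libraries, but untreated BMDM held 86400 of Lpl and only 32.4 of Ch25h. Abcg1, a cholesterol exporter, was higher at 28273, 20294 and 19521 against 3275 and 3468 (2.73 ± 0.15, adjusted p = 1.12e-07). Apoe, the main apolipoprotein of macrophages, overlapped between the groups, at 210500, 133720 and 112680 against 143520 and 166280.

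Over all genes tested 35.1% were lower, 38.1% higher and 41.2% within 2-fold. Of 25 glycolysis and hypoxia genes 19 were lower, 3 higher and 7 within 2-fold, with a median log2 difference of -1.12. The median was -0.67 with equal library totals (15 lower, 5 higher) and -0.70 after quantile normalization (17 lower, 5 higher). Slc16a3, the lactate exporter, measured 539, 850 and 1240 against 4754 and 4429 (-2.47 ± 0.27, adjusted p = 1.48e-05), while Ldha, lactate dehydrogenase A, measured 41196, 34070 and 27032 against 34867 and 32729 (interval -0.41 to 0.40). The glucose transporter Slc2a3 was higher, at 1562, 3639 and 3071 against 177 and 186. Of 34 genes of mitochondrial respiration 27 were lower and none higher by limma, yet 26 were within 2-fold and the median was -0.50. With equal library totals 14 were lower and 7 higher, with a median of -0.05. All genes then stood at 2719 lower and 7315 higher of 13750, with a median of 0.49. The direction of the list's small difference thus rested on the scaling, while its median was below that of all genes with both scalings. Cycs, cytochrome c, was the member at more than 2-fold, with 3696, 3929 and 3276 against 10318 and 9505 (-1.45 ± 0.10, adjusted p = 6.61e-07).

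Cell cycle genes were higher in 24 of 40 cases and lower in 4, against 38.1% and 35.1% of all genes. The median log2 difference of the list was 0.79. Mcm2, a replication licensing factor, measured 613, 982 and 1182 against 190 and 194 (2.21 ± 0.25, adjusted p = 2.05e-05), and untreated BMDM held a mean of 736. In 29 of the 40 genes the resident mean lay between both BMDM means. In LPS-treated BMDM 31 were lower and 2 higher than in untreated BMDM, against 29.5% and 28.3% of all genes. Ccnd2, a cyclin induced by mitogens, was lower at 4136, 4486 and 3858 against 12572 and 13153 (-1.63 ± 0.11, adjusted p = 4.25e-07). Mki67, the proliferation marker, overlapped, at 2587, 3947 and 5093 against 4305 and 4469. Resident replicate 1, which also held the least RNA of neutrophil and B lineage genes, was lowest of its group for Mcm2 and Mki67.

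**Figure D4:**
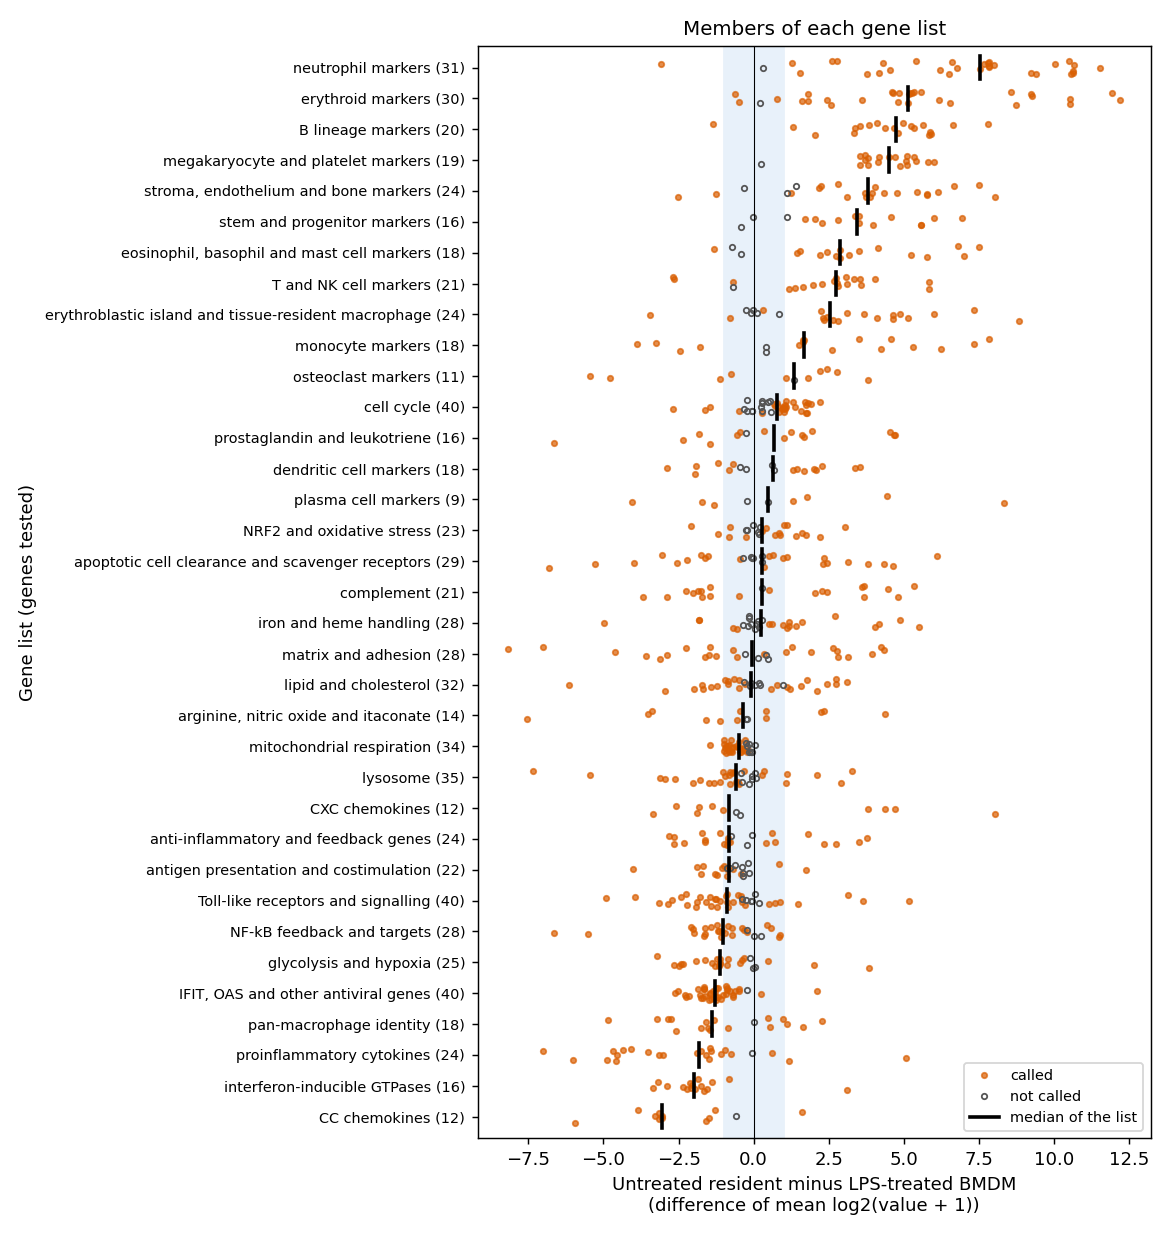
Log2 difference, untreated resident minus LPS-treated BMDM, for every tested member of 35 gene lists (number tested in brackets), ordered by median; filled points passed the test, open points did not, bars are medians and the shaded band spans a log2 difference from -1 to 1. CC chemokines have the lowest median at -3.06 and neutrophil markers the highest at 7.54.

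Genes of other marrow cells were among the largest differences upward. Of 31 neutrophil markers 29 were higher and 1 lower, against 38.1% and 35.1% of all genes. The markers had a median log2 difference of 7.54 (7.01 with genes at the floor set to their bound). They summed to 0.897 to 1.85% of the untreated resident libraries and 0.264 to 0.271% of the LPS-treated BMDM libraries, where 4 of them were at the floor. Ngp, a granule protein of neutrophil precursors, measured 65044, 98022 and 118660 against 51.4 and 58.2 (10.68 ± 0.29, adjusted p = 1.63e-09). Retnlg, a resistin-like gene of neutrophils, measured 5798, 5105 and 6866 and was listed at the floor in both LPS-treated BMDM libraries, so it was at least 1657-fold higher against 3 reads per library. Anxa1, the lower member, is also a macrophage gene and measured 8409, 12172 and 13740 against 96524 and 93624 (-3.08 ± 0.18, adjusted p = 1.75e-07).

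Of 30 erythroid markers 27 were higher and 2 lower, against 38.1% and 35.1% of all genes. The markers took 0.208 to 0.319% of untreated resident against 0.0120 to 0.0123% of LPS-treated BMDM libraries. Hbb-b1, an adult beta globin, measured 13856, 14167 and 19818 against 2.06 and 2.71. Hbb-b2 and Hbb-bt had identical values in every library and cannot be resolved from each other.

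Among the other marrow lineages, markers of B lineage cells were higher in 19 of 20 cases, of megakaryocytes and platelets in 18 of 19, of T and NK cells in 17 of 21, of stem and progenitor cells in 13 of 16, of eosinophils, basophils and mast cells in 15 of 18, of stroma, endothelium and bone in 19 of 24, and of monocytes in 12 of 18. Lower were 4 monocyte, 3 T and NK cell and 2 stromal markers. The B lineage list and the eosinophil, basophil and mast cell list each held 1 lower marker. Over all genes tested 38.1% were higher and 35.1% lower. The B lineage list took 0.0252 to 0.0544% of untreated resident libraries against 0.0128% in both BMDM LPS libraries. The megakaryocyte list took 0.0784 to 0.268% against 0.0106 to 0.0114%, and the monocyte list 0.126 to 0.229% against 0.117 to 0.121%. Rag1, the recombinase of lymphocyte precursors, measured 260, 436 and 786 and was at the floor in both LPS-treated BMDM libraries, at least 138-fold higher. Chil3, an abundant gene of monocytes and neutrophils, measured 13205, 20282 and 25342 against 84.3 and 79.9 (7.83 ± 0.26, adjusted p = 4.35e-09). Resident replicate 1 was the lowest of its group for Rag1, Chil3, Ngp and the megakaryocyte list. Dendritic cell markers (8 of 18 higher, 6 lower) and plasma cell markers (4 of 9 higher, 3 lower) had counts near the shares of all genes. Osteoclast markers (6 of 11 higher, 4 lower) were also mixed. The dendritic list took 0.0743 to 0.0936% of untreated resident against 0.134 to 0.137% of LPS-treated BMDM libraries, and the plasma cell list 0.0365 to 0.0394% against 0.0576 to 0.0581%. For T and NK cells the number higher fell from 17 to 6 with a filter at 100, since most of these genes were at low values, and their summed share was 0.0143 to 0.0156% against 0.0130 to 0.0149% in LPS-treated BMDM. The part of these cells in the differences of the other lists was not tested, and the resident share of the antiviral, cytokine and NF-kB lists is that of the whole retained cell fraction.

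**Figure D5:**
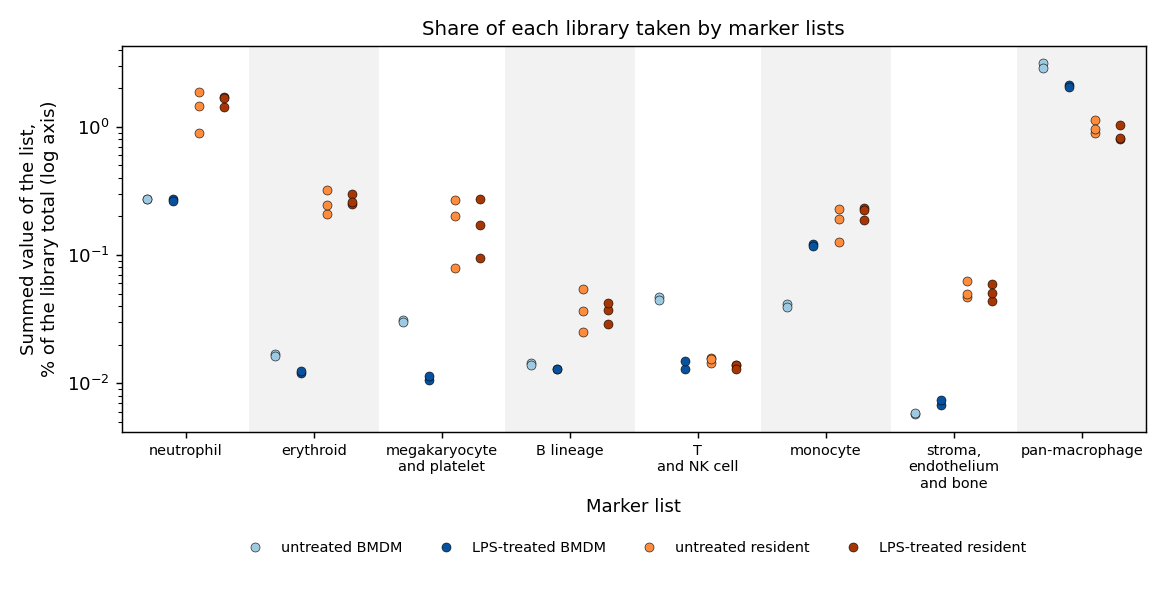
Summed deposited value of 8 marker lists as a percentage of the library total (log axis), for each of the 10 libraries by group. Neutrophil, erythroid, megakaryocyte, B lineage and stromal lists are higher in every resident library than in every BMDM library, and the pan-macrophage list is lower.

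Among the largest differences downward were several genes of the BMDM state. Mamdc2, an extracellular matrix protein, measured 1, 1.9 and 1 in untreated resident and 2159 and 2544 in LPS-treated BMDM libraries, with a mean of 2188 in untreated BMDM. Cav1, which forms caveolae, measured 68.7, 76 and 48.6 against 18373 and 20832 (-8.25 ± 0.27, adjusted p = 4.04e-09), and Timp1, an inhibitor of matrix proteases, 44.6, 26.6 and 29.5 against 4800 and 3846 (-6.99 ± 0.33, adjusted p = 3.95e-08). Raet1e, a ligand of the NKG2D receptor, was listed at the floor in all 3 untreated resident libraries and measured 264 and 253 in LPS-treated BMDM, at least 92.6-fold higher there. Itgb8, an integrin that activates TGF-beta, measured 1.78, 1.9 and 1.91 against 1068 and 1250. Untreated BMDM separated these genes: Mamdc2 was as abundant there as after LPS, whereas Itgb8 had a mean of 2.28 and Timp1 of 51.6.

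Of the 10 most abundant genes in LPS-treated BMDM that were held within 2-fold, H2-D1, H2-K1, Apoe and Lgals3 belong to functions of macrophages, antigen presentation, lipid transport and galectin-3. Lgals3 measured 199960, 125230 and 118460 against 165380 and 165610 (interval -0.82 to 0.41). The values of the resident libraries lay on both sides of the BMDM values for Lgals3 and Apoe. The 2-fold interval of both genes was exceeded when either LPS-treated BMDM library was left out and after quantile normalization.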

How the data were processed

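RNA sequencing libraries of 4 groups were used, 3 of untreated resident macrophages, 3 of LPS-treated resident macrophages, 2 of untreated BMDM and 2 of LPS-treated BMDM. The authors deposited 1 table of normalized signal per gene and library, with 13809 genes and a floor of 1. HISAT 0.1.7 and the genome build mm10 are named in the submitters' processing notes, and how reads were counted and scaled is not given there. In each library all values were whole multiples of 1 step (tolerance 0.02), which gave the read totals. The 13755 genes reaching 10 in 2 or more libraries were tested on log2(value + 1) with limma 3.58.1 in R 4.3.3, with 4 group means over all 10 libraries, moderated variances with a trend, and Benjamini-Hochberg adjustment over all genes tested. Every adjusted p comes from limma. Called means an adjusted p below 0.05. An interval is the 95% confidence interval, and within 2-fold means that it lies between -1 and 1. Where a group was at the floor, folds are bounds against 3 reads per library, which cover counting error only.

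The script was tested on simulated data for this comparison (13536 genes): 29 of 61 genes changed 1.5-fold, 42 of 70 changed 2-fold and 58 of 68 changed 4-fold were called, and 9 of 13337 unchanged genes. The members and the 35 gene lists (782 genes, 764 tested) were chosen with earlier results of these data known. Genes were named by a rule: 28 chosen genes, the 15 largest called differences each way without overlap and with a mean of at least 20 in the higher group, up to 3 called genes each way and up to 2 genes within 2-fold per list, and the 10 most abundant genes within 2-fold. Gene positions are from GENCODE M21 (GRCm38). Figures were drawn with matplotlib 3.10.9 in Python 3.11.15. Alternatives covered the pseudocount, the filter, the scaling, the groups fitted, the moderation, weights, voom on recovered reads, the 2 libraries holding Y-linked RNA, and omission of each library in turn. One gene is not reported here.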

Additional observations from a re-analysis of the deposited data

How the results depend on the processing

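Over 25 alternatives, 82 of the 112 genes named in the text kept their call and direction throughout. When tested against a minimum log2 difference of 1, 3519 genes were called, 2249 higher and 1270 lower. With equal library totals 2719 were called lower. Leaving out each library in turn gave 8564 to 10244 called genes, 4524 to 5347 higher, 4040 to 4910 lower and 4874 to 5796 within 2-fold, with the lowest counts without the first LPS-treated BMDM library. After quantile normalization the log2 difference changed sign for Apoe (0.85), H2-D1 (0.48), H2-K1 (0.94), Itgav (0.42), Ldha (0.64), Lgals3 (0.74), Mki67 (0.087), Nfkbia (0.29), Nod1 (0.35), Oasl1 (0.70), Spi1 (0.57), Tlr2 (0.39) and Zfp36 (0.41). With equal library totals it changed sign for the same genes, at 0.38, 0.086, 0.27, 0.37, 0.44, 0.24, 0.22, 0.051, 0.37, 0.22, 0.45, 0.19 and 0.22 in that order, and for Tlr4 (0.067). Under other alternatives signs changed only for Apoe, Itgav, Ldha, Lgmn, Mki67, Nod1 and Spi1. All of these have small differences in the main result, and the cause of the sign changes beyond the scaling itself was not tested. The share of called genes that were higher was 52.1% and was 72.9% with equal library totals. The planned count tests on recovered reads with a quasi-likelihood or negative binomial model were not run. No paired analysis was possible because the labels give the libraries serial numbers and no replicate numbers shared between groups. With 2 libraries of LPS-treated BMDM, the spread of that group rests on 1 difference, pooled with the other groups in the fit.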
